A study of Mus musculus with 44 samples.

Results

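H3K27ac, acetylation of lysine 27 on histone H3, was compared between neurons of the cortex and those of the PVT, the paraventricular nucleus in the midline of the thalamus. The comparison used 8 of the 44 libraries of the series, the 4 PVT and the 4 cortical (COR) H3K27ac libraries, and 20665 autosomal protein-coding genes of the 49997 genes in the annotation. Each region had 2 wild-type (WT) libraries and 2 libraries of Polg(D181A) mice, all from adult brain on the C57BL/6 strain. Polg(D181A) is a mutant form of Polg, the polymerase that copies mitochondrial DNA, carried as a transgene. In the line as published, the Camk2a promoter drives it in forebrain neurons, so reads from that promoter copy or from the transgene would fall on the endogenous Camk2a and Polg genes. Nuclei were sorted for NeuN, the neuronal protein encoded by Rbfox3, before immunoprecipitation. Whether the 2 replicates in each group are different animals is not stated in the labels, and the p-values therefore reflect only how far these libraries vary, which may be technical. Genotype entered the main test as a covariate.

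Acetylation of H3K27 is deposited by the p300 and CBP acetyltransferases and marks active promoters and enhancers. Broad acetylated domains often lie over the transcription factor genes that define a cell type. PVT neurons are excitatory projection neurons of thalamic origin and receive orexin, opioid and other peptide input, whereas cortical projection neurons arise from progenitors that express Emx1.

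For each gene, the counts and the lengths of all peaks that overlapped its annotated span, extended by 5 kb at both ends, were summed. The summed counts are given as CPM, counts scaled to a common library size with edgeR's TMM factors, and the summed length is the acetylated length in kb. The peaks of each region were merged over its 4 libraries, separately from the other region, so acetylated length has 1 value per region and no replicate error. A gene without a peak in a region has the value 0 in all its libraries, since reads outside peaks were not counted. Where a peak lay at the gene, a single library can still have 0 counts in it. No fold is given where a region had no peak.

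Library totals were 52759552 to 146450422 counts in PVT and 52566179 to 197650530 in cortex. The PVT libraries were more alike than the cortical ones: over the 13907 genes with a peak in both regions, Spearman's rho between libraries was 0.928 to 0.952 in PVT, 0.702 to 0.841 in cortex and 0.518 to 0.591 between regions. The 2 peak sets also differed in how evenly libraries filled them. Of 123818 PVT peaks, 69.7% had a count in all 4 libraries, against 37.3% of 141298 cortical peaks. Cortical peaks with counts in a single library made up 10.5% of the set, and their median count there was 988. The second WT library of cortex stood apart, with 0 counts in 41.9% of cortical peaks. The part of uneven cortical peaks in the results was not tested beyond the values given beside them. In bulk nuclei, fewer cells of a type and less acetylation per cell cannot be told apart.

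Polg itself had 6.92 and 10.4 CPM in the WT and 28.8 and 33.6 CPM in the mutant PVT libraries. In cortex it had 15.4 and 49.2 CPM in the WT and 30.2 and 48.8 CPM in the mutant libraries. Both mutant PVT libraries lay above both WT ones, while genotypes overlapped in cortex, and regions overlapped. The log2 change of PVT over cortex was -1.12 (SE 0.52, edgeR adjusted p = 0.128). Acetylation at Polg does not check the genotype labels.

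The 4 marker genes set the regions apart. Gbx2, a homeobox factor of the developing thalamus (chromosome 1, 89927962 to 89931176, mm10), had 133, 108, 139 and 91.0 CPM in the PVT libraries over 15.254 kb, and no cortical peak. Zic1, a zinc finger factor of midline and medial structures (chromosome 9, 91358058 to 91365768), had 81.2, 33.7, 68.6 and 53.6 CPM over a single PVT peak of 6.697 kb, and no cortical peak. Emx1, the homeobox factor of cortical progenitors (chromosome 6, 85187931 to 85204463), had 92.9, 58.5, 112 and 51.6 CPM in cortex over 12.604 kb, and no PVT peak. These 3 genes thus had peaks in 1 region each.

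Tcf7l2, a Wnt-pathway factor of thalamic neurons (chromosome 19, 55741797 to 55933659), had peaks in both regions. Its PVT libraries held 988, 838, 861 and 792 CPM over 23 peaks and 101.397 kb. Its cortical libraries held 14.0, 28.9, 8.49 and 41.9 CPM over 8 peaks and 3.186 kb. All PVT values lay far above all cortical ones, with a log2 change of 5.22 (SE 0.53, adjusted p = 0.000261). Per acetylated kb the difference was only 0.25 on the log2 scale.

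The starts of 6 factor genes with strong regional acetylation are shown to place peaks against sequence, from RefSeq on GRCm38.p6, which is mm10. Each window is the 250 bases upstream of an annotated start, read 5′ to 3′ along the gene, with CpG dinucleotides in capitals. Gbx2 (chr1:89931177-89931426, minus strand), Prox1 (chr1:190170828-190171077, minus) and Lef1 (chr3:131110047-131110296, plus) lay in or at the edge of PVT peaks. Emx1 (chr6:85187681-85187930, plus), Neurod6 (chr6:55681264-55681513, minus) and Tbr1 (chr2:61804203-61804452, plus) lay wholly inside cortical peaks and outside PVT peaks.
Gbx2: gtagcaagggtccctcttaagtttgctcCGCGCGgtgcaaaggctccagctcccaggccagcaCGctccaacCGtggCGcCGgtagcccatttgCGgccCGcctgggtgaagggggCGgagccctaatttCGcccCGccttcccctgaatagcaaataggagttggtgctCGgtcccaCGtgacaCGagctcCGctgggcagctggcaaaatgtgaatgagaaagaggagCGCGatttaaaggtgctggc
Prox1: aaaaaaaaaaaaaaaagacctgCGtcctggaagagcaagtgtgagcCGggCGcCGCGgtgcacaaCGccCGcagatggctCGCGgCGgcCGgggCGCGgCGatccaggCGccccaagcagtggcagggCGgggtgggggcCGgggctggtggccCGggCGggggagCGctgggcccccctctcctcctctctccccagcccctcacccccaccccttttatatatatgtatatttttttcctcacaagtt
Lef1: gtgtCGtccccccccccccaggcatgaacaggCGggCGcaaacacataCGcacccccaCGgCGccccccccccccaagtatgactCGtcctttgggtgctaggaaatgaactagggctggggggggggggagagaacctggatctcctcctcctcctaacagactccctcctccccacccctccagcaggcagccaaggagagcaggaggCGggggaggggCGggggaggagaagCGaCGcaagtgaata
Emx1: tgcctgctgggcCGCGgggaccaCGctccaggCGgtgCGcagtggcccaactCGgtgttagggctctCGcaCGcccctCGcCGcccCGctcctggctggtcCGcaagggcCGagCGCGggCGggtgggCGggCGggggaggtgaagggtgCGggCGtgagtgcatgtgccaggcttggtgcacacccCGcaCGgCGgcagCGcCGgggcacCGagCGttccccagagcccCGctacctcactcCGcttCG
Neurod6: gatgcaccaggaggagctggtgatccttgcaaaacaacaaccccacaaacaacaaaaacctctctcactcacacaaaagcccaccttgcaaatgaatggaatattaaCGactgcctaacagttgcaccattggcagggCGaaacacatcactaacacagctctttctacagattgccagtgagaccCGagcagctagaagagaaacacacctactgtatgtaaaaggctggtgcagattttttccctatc
Tbr1: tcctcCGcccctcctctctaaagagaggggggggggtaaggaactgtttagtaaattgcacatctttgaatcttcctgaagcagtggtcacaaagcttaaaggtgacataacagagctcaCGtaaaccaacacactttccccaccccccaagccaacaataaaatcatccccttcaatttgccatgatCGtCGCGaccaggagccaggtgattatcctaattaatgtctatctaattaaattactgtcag
The windows held 18, 20 and 11 CpG at Gbx2, Prox1 and Lef1 and 30, 3 and 5 at Emx1, Neurod6 and Tbr1. CpG-rich and CpG-poor starts were thus both acetylated in 1 region alone. PVT peaks covered all 250 bases at Prox1 and Lef1 and 17 bases at Gbx2, where 173 bases lay in a peak of open chromatin (ATAC-seq of PVT neurons). At Emx1, 184 bases lay in a PVT peak of open chromatin although no PVT H3K27ac peak was called there.

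**Figure D1:**
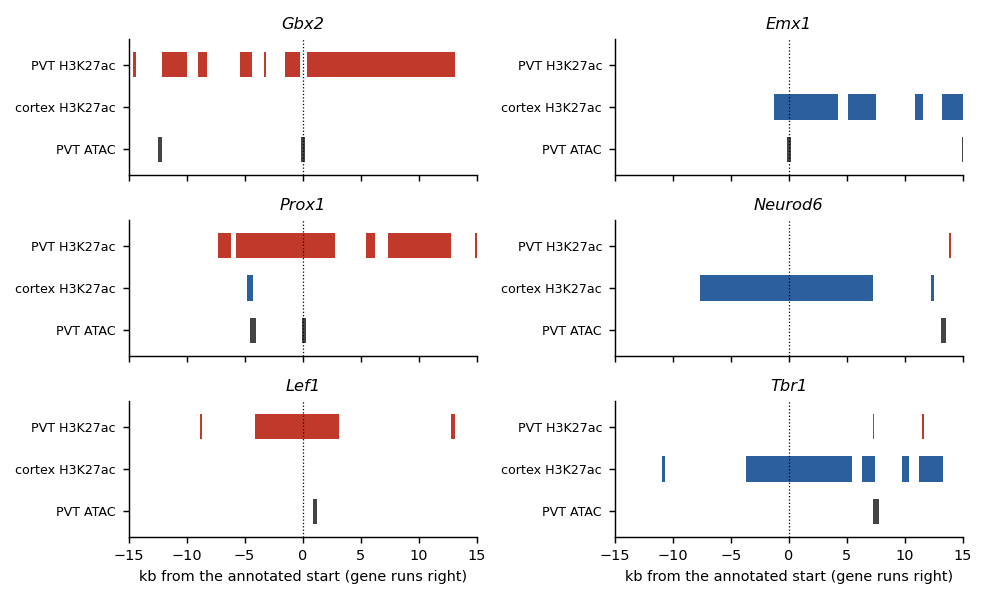
Peaks within 15 kb of the start of 6 factor genes (horizontal axis, kb from the annotated start, with the gene running to the right), for PVT H3K27ac, cortical H3K27ac and PVT open chromatin. Gbx2, Prox1 and Lef1 have PVT peaks at the start, and Emx1, Neurod6 and Tbr1 have cortical peaks there.

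Presence of peaks divided the genes first. A peak lay at 13907 genes (67.3%) in both regions, at 1360 (6.58%) in PVT alone, at 1703 (8.24%) in cortex alone and at 3695 (17.9%) in neither. The count for each region alone depended on how peaks were supported. Over peaks with a count in all 4 libraries of their region, here called supported peaks and a choice made after the data were seen, 3468 genes had a peak in PVT alone and 1068 in cortex alone, so the order of the regions turned. With the span extended by 20 kb instead, 737 genes had a peak in PVT alone. Genes without a peak were short, with a median span of 3.81 kb against 17.5 kb for all genes. Olfactory receptor genes made up 911 of the genes with no peak in either region, which were 24.7% of that class and most of the 1104 such genes.

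Where both regions had peaks, the median acetylated length was 3.54 kb in PVT and 3.41 kb in cortex, with a median log2 ratio of 0.06, and single genes differed widely around it. Over supported peaks the medians were 4.11 and 3.11 kb, with a median log2 ratio of 0.34. Length was at least 2 times greater in PVT at 3536 of the 13907 genes and in cortex at 3211, and over supported peaks these became 3437 and 1936. The shortest peaks were 151 bases in PVT (19.0% of its peaks) and 251 bases in cortex (22.9%), so lengths start from unlike floors. The part of these floors in acetylated length and counts per kb was not tested. Spearman's rho of the 2 lengths across genes was 0.590, a description since genes are not replicates. Of all autosomal PVT peaks, 28.5% overlapped a cortical peak by at least 1 base, and 27.02% of the PVT acetylated bases lay inside cortical peaks.

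On summed counts, 6024 of 15633 tested genes (38.5%) passed an adjusted p of 0.05 (edgeR quasi-likelihood test, Benjamini-Hochberg), 2994 higher in PVT and 3030 higher in cortex. Among the 13862 tested genes with a peak in both regions, 4253 (30.7%) passed, 1941 (14.0%) higher in PVT and 2312 (16.7%) higher in cortex. Changes of at least 2-fold made up 1610 (11.6%) and 2018 (14.6%) of these genes. The values of the 4 PVT and the 4 cortical libraries did not overlap at 5311 genes (38.3%). These shares are the background against which the gene groups are given. Over supported peaks alone 9072 of 15123 genes passed, 5681 of them higher in PVT, so 62.6% of calls were then higher in PVT.

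The differences followed acetylated length rather than counts per kb. Across the 10406 genes with at least 1 kb in each region, the log2 ratio of summed counts had a Pearson's r of 0.902 with the log2 ratio of acetylated kb, and 0.403 with the log2 ratio of counts per kb. These correlations share their counts or lengths by construction and carry no test. Over these genes the median size of the log2 change was 0.79 for summed counts and 0.32 for counts per kb. None of them (0.0%) passed the edgeR test on counts per kb, where 849 had an unadjusted p under 0.05 and the smallest adjusted p was 0.355. DESeq2 called 84 of them, and edgeR called 2 without the second WT library of cortex. The median SE of 0.38 on the log2 scale bounds what that test could detect.

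**Figure D2:**
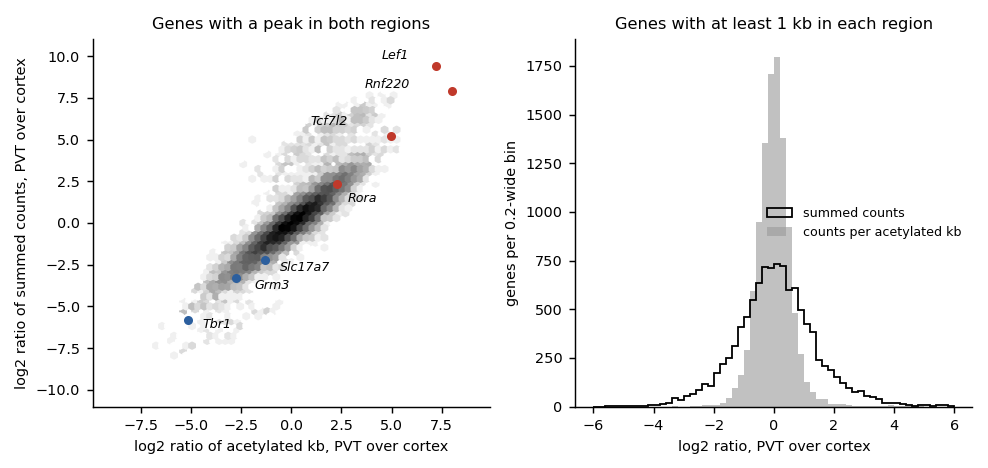
Left, log2 ratio of summed H3K27ac counts (vertical) against log2 ratio of acetylated kb (horizontal), PVT over cortex, for 13862 genes with peaks in both regions (darker cells hold more genes, on a log scale), with named genes in red or blue. Right, numbers of genes by log2 ratio for summed counts (line) and counts per acetylated kb (grey) over 10406 genes; the grey distribution is the narrower one.

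Thalamic transcription factor genes were mostly acetylated in PVT and little in cortex. Of 15 listed genes, 5 had a peak in PVT alone (Gbx2, Zic1, Zic2, Zic4 and Zic5), 9 in both and Olig3 in neither. Of the 9, 6 were higher in PVT (Tcf7l2, Lef1, Lhx9, Prox1, Rora and Foxp2), 1 was higher in cortex and 2 did not pass, where 14.0% and 16.7% of all genes with peaks in both were higher in PVT and in cortex. The median log2 change was 2.83 over these 9, against 0.05 over all genes with peaks in both. Over supported peaks, 7 had a peak in PVT alone and 7 in both.

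Zic2 and Zic5, neighbouring zinc finger genes, shared a PVT peak of 28.468 kb on chromosome 14 (122462964 to 122491431). It was the only peak at Zic2, with 342, 272, 376 and 288 CPM in the PVT libraries, and no cortical peak lay at either gene. Their summed values are therefore not independent. Zic4, next to Zic1, had 331, 197, 300 and 234 CPM in PVT over 22.386 kb and no cortical peak.

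Lef1, a Wnt-pathway factor related to Tcf7l2, had 294, 230, 252 and 246 CPM in PVT over 37.552 kb. In cortex it had 4.49 CPM in the first WT library and 0 in the other 3, from 1 peak of 0.251 kb. The log2 change of 9.40 (SE 2.15, adjusted p = 0.00882) was the largest among all genes with peaks in both regions, and its size rests on that single cortical library. Prox1, a homeobox factor also used as a dentate gyrus marker, had 319, 187, 280 and 237 CPM in PVT and 4.43, 10.95, 0.612 and 2.24 in cortex. Its log2 change was 6.25 (SE 0.77, adjusted p = 0.000613). PVT and cortical libraries did not overlap at either gene.

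Rora, a nuclear receptor of thalamic neurons, held the longest acetylated length of any gene in PVT, 293.736 kb against 60.127 kb in cortex. Its PVT libraries had 2354, 1936, 1848 and 1621 CPM and its cortical ones 419, 361, 391 and 347. The log2 change of summed counts was 2.35 (SE 0.13, adjusted p = 5.25e-05) and that per kb 0.08. Lhx9, a LIM homeobox factor, changed by 5.13 (SE 0.78) and Foxp2, a forkhead factor also found in deep cortical layers, by 2.83 (SE 0.39). Esrrg, an orphan nuclear receptor listed with these genes, went the other way: it had 17.1 to 32.0 CPM in PVT and 167 to 268 CPM in cortex, with a log2 change of -3.25 (SE 0.27, adjusted p = 0.000113).

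Cortical projection neuron factors showed the reverse pattern with exceptions. Of 20 listed genes, 5 had a peak in cortex alone (among them Emx1, Emx2, Neurod6 and Fezf2), 14 in both and Eomes in neither. Of the 14, 8 were higher in cortex (among them Tbr1, Neurod2, Sox5, Tle4, Bcl11b, Mef2c and Neurod1), 4 were higher in PVT and 2 did not pass. The median log2 change was -0.80. Shares were 57.1% higher in cortex and 28.6% in PVT, against 16.7% and 14.0% over all genes with peaks in both.

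Neurod6, a bHLH factor of cortical excitatory neurons, had 129, 83.1, 150 and 101 CPM over a single cortical peak of 14.83 kb. No PVT peak lay at this gene, and all 4 cortical libraries had a count.

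Tbr1, a T-box factor of deep layers, had 102, 139, 141 and 132 CPM in cortex and 0.800 to 5.67 CPM in PVT (log2 change -5.83, SE 0.53, adjusted p = 0.000171). The regions did not overlap at Tbr1. Neurod2 changed by -3.80, Sox5 by -2.46, Tle4 by -2.17 and Bcl11b by -1.14. Mef2c and Neurod1 changed by -0.80 each, and with 1 library left out their calls were lost in 5 and 6 of 8 fits. Over matched peaks, those of the 2 regions that overlap by at least 50% of both lengths, Mef2c turned to 0.32.

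The 4 listed factors higher in PVT were Rorb, Lhx2, Cux1 and Cux2, which are known as layer 4 and upper-layer genes or, for Lhx2, as a progenitor factor. Rorb, a nuclear receptor, had 382 to 430 CPM in PVT and 126 to 207 CPM in cortex, without overlap (log2 change 1.43, SE 0.19, adjusted p = 0.000759). Lhx2 changed by 1.20, Cux1 by 0.81 and Cux2 by 0.79, which turned to -0.10 over matched peaks. Among 15 cortical layer markers, 13 had a peak in both regions, 4 were higher in PVT and 2 higher in cortex, with a median of -0.07. Tshz2, a zinc finger gene listed for deep layers, had 194 to 225 CPM in PVT and 16.3 to 38.8 in cortex (log2 change 2.87), and Syt6 changed by -0.98. Over matched peaks the Tshz2 change was -0.54, and the Syt6 call was lost in 5 of the 8 fits that left out 1 library.

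**Figure D3:**
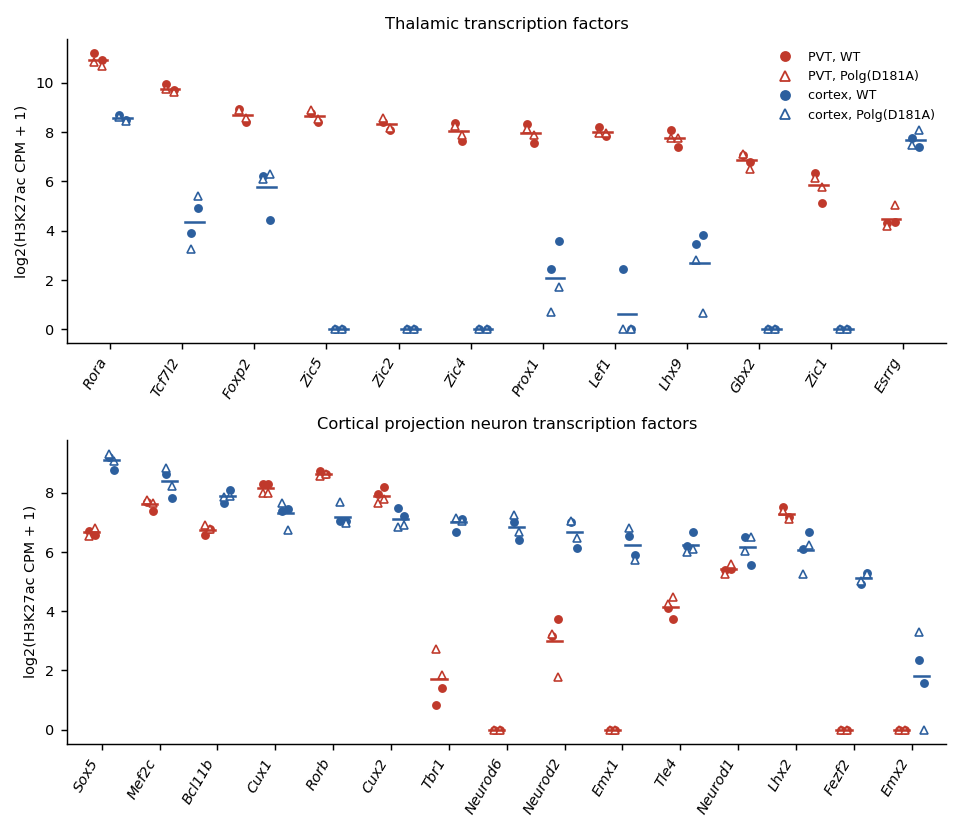
H3K27ac by library as log2(CPM + 1) at thalamic (top) and cortical (bottom) transcription factor genes named in the text; red is PVT, blue is cortex, filled circles are WT, open triangles are Polg(D181A), and bars are means of the 4 libraries. Zic5, Zic2, Zic4, Gbx2 and Zic1 sit at 0 in cortex, and Neurod6, Emx1, Fezf2 and Emx2 sit at 0 in PVT.

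The vesicular glutamate transporter genes, which load glutamate into synaptic vesicles, were acetylated in opposite ways. Slc17a6 (VGLUT2), the transporter of most thalamic neurons, had 167, 148, 129 and 129 CPM in PVT and 33.0, 13.1, 46.0 and 46.0 in cortex (log2 change 2.13, SE 0.38, adjusted p = 0.00295). Slc17a7 (VGLUT1), that of most cortical projection neurons, had 19.3, 25.5, 16.0 and 17.8 CPM in PVT and 100.5, 74.96, 138 and 51.1 in cortex (log2 change -2.23, SE 0.35, adjusted p = 0.00185). The regions did not overlap at either gene. Slc17a8 (VGLUT3) had 6.07 to 16.4 CPM in PVT and a value above 0 in 1 cortical library, and did not pass (adjusted p = 0.152).

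Among genes of GABA neurons, the Dlx factors and Sst had peaks in cortex alone. Of 18 genes, 7 had a peak in cortex alone (Slc32a1, Dlx1, Dlx2, Dlx5, Dlx6, Sst and Vip), 10 in both and 1 in neither. Sst, the interneuron peptide somatostatin, had 17.9, 18.2, 14.5 and 11.9 CPM in cortex. Dlx1 had 0.0659 to 6.98 CPM there and Vip a value above 0 in 1 library. Of the 9 tested with peaks in both, Adarb2 was higher in PVT (1.46) and Reln, the secreted protein reelin, higher in cortex (log2 change -1.59). These shares, 11.1% each, lay near the 14.0% and 16.7% over all genes with peaks in both. Gad1, a GABA-synthesising enzyme, had means of 2.50 ± 0.805 CPM in PVT and 5.15 ± 3.41 in cortex (SD, n = 4), and its libraries overlapped.

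Genes of PVT peptides, peptide receptors and calcium-binding proteins did not move as a group. Of 22, 3 had a peak in PVT alone (Calb2 and Tac1 among them), 2 in cortex alone, 15 in both and 2 in neither. Calb2 (calretinin) had 63.0, 42.0, 92.3 and 54.1 CPM in PVT and no cortical peak. Of the 15, 2 were higher in each direction and 11 did not pass, with a median log2 change of -0.11. Each direction thus held 13.3%, against 14.0% in PVT and 16.7% in cortex over all genes with peaks in both. Over supported peaks 8 had a peak in PVT alone and none in cortex alone.

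The orexin receptor genes were the 2 that rose in PVT. Hcrtr1 had 30.6 to 50.1 CPM in PVT and 6.86 to 26.8 in cortex (log2 change 1.36, SE 0.41, adjusted p = 0.0293), and Hcrtr2 overlapped between regions (1.27, SE 0.42, adjusted p = 0.0456). Both calls were lost without any 1 of the 4 PVT libraries, and Hcrtr2 also without the first WT or first mutant library of cortex. Over peaks at a single gene, the Hcrtr1 change was -1.46. The opioid receptor genes Oprm1 (-1.63, SE 0.38) and Oprd1 (-3.03, SE 0.65) were higher in cortex, and over peaks at a single gene the Oprm1 change was 0.84. Oprm1 had 157 CPM in the second WT library of cortex and 489 to 583 in the other 3. Drd2, a dopamine receptor gene noted in PVT neurons, had 48.5 to 63.1 CPM in PVT and 0 to 11.3 in cortex. It did not overlap, but its test did not pass (adjusted p = 0.11), nor did those of Drd3 (0.125) and the galanin gene Gal (0.108).

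Calcium, HCN and potassium (Kcnk and Kcnn) channel genes, listed for the burst firing of thalamic neurons, all had peaks in both regions. Of 18, 5 were higher in PVT, 5 higher in cortex and 8 did not pass, with a median of -0.13. The list thus split evenly, 27.8% each way, against 14.0% in PVT and 16.7% in cortex over all genes with peaks in both.

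Hcn4, an HCN pacemaker channel subunit of thalamic relay neurons, had 196, 148, 145 and 128 CPM in PVT and 0.631, 8.65, 12.4 and 18.4 in cortex (log2 change 4.18, SE 0.85, adjusted p = 0.00488). Its PVT and cortical libraries did not overlap. Kcnn3 (3.21), the L-type gene Cacna1c (1.99), the T-type gene Cacna1g (1.53) and Cacna1b (1.19) were higher in PVT. Kcnn1 (-2.36), Kcnk2 (-1.87), Kcnn2 (-1.38) and Cacna1e (-0.59) were among those higher in cortex. Over matched peaks, Cacna1b, Cacna1e and Kcnn2 had log2 changes of -0.28, 0.13 and 0.63.

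Glutamate receptor genes all had peaks in both regions: of 23, 7 were higher in PVT, 4 higher in cortex and 12 did not pass, with a median of 0.15. That is 30.4% and 17.4%, against 14.0% and 16.7% over all genes with peaks in both. Grm4, a presynaptic group III metabotropic receptor, had 593, 610, 537 and 451 CPM in PVT over 81.331 kb and 7.63, 9.45, 0.571 and 3.46 in cortex over 0.627 kb (log2 change 7.02, SE 0.70, adjusted p = 0.000237). The NMDA receptor subunit gene Grin2c had 82.0 to 95.1 CPM in PVT and 0.0277 to 4.87 in cortex (5.60, SE 1.14). Neither overlapped between regions. Grm2 (2.59), Grin2d (2.01), Grik1 (1.72) and Grin3a (1.34) were also higher in PVT, Grik1 not without the first WT library of cortex.

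Grm3, a group II metabotropic receptor gene, had 40.6, 37.0, 59.2 and 63.5 CPM in PVT and 471, 321, 566 and 575 in cortex (log2 change -3.28, SE 0.16, adjusted p = 4.16e-05). Its group II partner Grm2 thus went the other way. Grm5 (-1.44) and Grm8 (-0.94) were also higher in cortex. Over matched peaks, Grm3, Grm5 and Grm8 had log2 changes of 0.00030, 0.22 and 0.0069. With 1 library left out the Grm8 call was lost in 3 of 8 fits.

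GABA receptor genes had 12 of 14 with peaks in both regions and Gabra6 and Gabrg1 with peaks in PVT alone. Of the 12, Gabbr1 (1.52), Gabbr2 (1.05), which encode the GABA-B receptor, and Gabrd (0.91), which encodes an extrasynaptic subunit, were higher in PVT. Gabra5 (-0.69) and Gabra2 (-0.71) were higher in cortex and 7 did not pass. Shares were 25% in PVT and 16.7% in cortex, against 14.0% and 16.7% over all genes with peaks in both. Over peaks at a single gene Gabrd had no PVT count left, so that its direction turned. With 1 library left out, the Gabbr1 call was lost in 5 of 8 fits, that of Gabra2 in 6 and that of Gabra5 in 1, without the first mutant library of PVT. With a 20 kb extension Gabra5 turned to 0.12. Gabbr2 had 2081 to 2942 CPM in PVT over 281.961 kb and 1130 to 1213 in cortex over 170.03 kb. Gabrg1 had 52.2 to 70.2 CPM in PVT, and Gabra6 had 0.162 to 5.79.

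Serotonin receptor genes with peaks in both regions were more often higher in cortex. Of 12, 2 had a peak in cortex alone (Htr1a and Htr3a) and 10 had peaks in both. Of the 10, 5 were higher in cortex, 1 higher in PVT and 4 did not pass, with a median of -0.39. The shares over all genes with peaks in both were 16.7% and 14.0%. Over supported peaks the order of presence turned, with 2 of the 12 in PVT alone and 1 in cortex alone. Htr2a, the receptor of hallucinogens, had 3.31, 9.07, 14.4 and 4.83 CPM in PVT and 76.3, 107, 114 and 107 in cortex (log2 change -3.71, SE 0.47, adjusted p = 0.0007). Htr1f (-3.90), Htr6 (-2.79), Htr4 (-2.77) and Htr5a (-1.58) were the others. Htr7, a receptor coupled to stimulation of cAMP, had 142 to 186 CPM in PVT and 47.0 to 120 in cortex (1.28, SE 0.28, adjusted p = 0.00743). Htr1d and Htr2b lay higher in all PVT libraries than in any cortical one but did not pass (adjusted p = 0.138 and 0.0786).

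**Figure D4:**
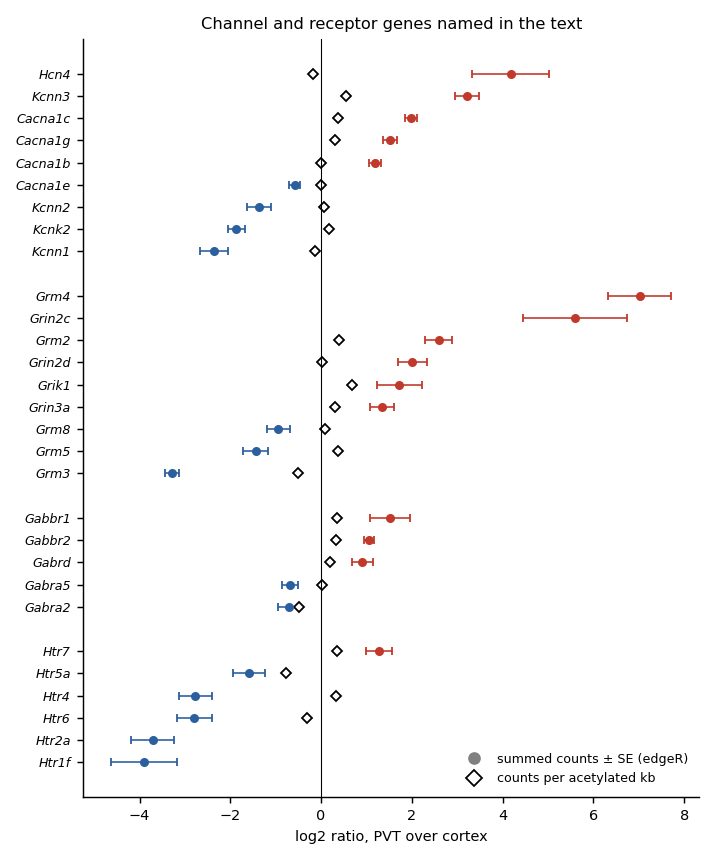
Log2 ratio of PVT over cortex at genes of the channel, glutamate, GABA and serotonin receptor lists named in the text that passed the edgeR test. Other receptor genes named in the text are not shown. Filled circles are summed counts with their SE (red higher in PVT, blue higher in cortex). Open diamonds are counts per acetylated kb where both regions had at least 1 kb. Circles range from 7.02 at Grm4 to -3.90 at Htr1f.

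Calcium/calmodulin kinase genes divided by isoform. Of 11, all with peaks in both, 4 were higher in PVT, 5 higher in cortex and 2 did not pass, with a median of 0.17. These shares of 36.4% and 45.5% stand against 14.0% and 16.7% over all genes with peaks in both. Camk2g (-3.33), Camk2a (-1.41), Camk4 (-1.18), Camk1g (-1.11) and Camkk2 (-0.99) were higher in cortex. Camkv (1.05), Camk2d (0.94), Camk2b (0.50) and Camk1d (0.33) were higher in PVT. Over peaks at a single gene Camkv had no PVT count left, so that its direction turned. With 1 library left out, the call was lost in 7 of 8 fits at Camk1d, 5 at Camk2d, 2 at Camkk2 and 1 at Camk2b, without the second WT library of PVT. Over matched peaks Camk4 and Camkk2 turned to 0.036 and 0.64.

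Camk2a, the kinase subunit typical of forebrain excitatory neurons, had 256, 256, 230 and 169 CPM in PVT and 612, 300, 706 and 875 in cortex. Both mutant cortical libraries lay above both WT ones, and the part of the transgene's Camk2a promoter in this was not tested. In WT libraries alone the log2 change was -0.85, against -1.99 in the mutant ones. Over peaks at a single gene it was 0.33.

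Immediate early and activity genes are those that neurons induce on firing. Of 17, 3 had a peak in cortex alone (Junb, Egr2 and Egr4) and 14 in both. Of the 14, 6 were higher in cortex, 0 were higher in PVT and 8 did not pass, with a median of -0.84. Over all genes with peaks in both, 16.7% were higher in cortex and 14.0% higher in PVT. Arc, a synaptic protein gene, had 86.9, 78.5, 90.2 and 87.6 CPM in PVT and 177, 190, 167 and 157 in cortex (log2 change -1.01, SE 0.15, adjusted p = 0.00126). Egr3 (-1.74), Bdnf (-1.39), Nr4a1 (-1.35), Egr1 (-0.91) and Nr4a3 (-0.77) were the others. Egr1 turned to 1.66 with no extension of the span and to 1.55 over peaks at a single gene. Nr4a3 turned to 1.55 over matched peaks, and its call was lost in 3 of 8 fits with 1 library left out. Fos had 0 to 2.63 CPM in PVT and 2.74 to 49.3 in cortex and did not pass (adjusted p = 0.0536).

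Adhesion and guidance genes changed in both directions. Of 17 cadherin genes, all with peaks in both and 16 tested, Cdh4 (2.25) and Cdh13 (0.51) were higher in PVT and 6 were higher in cortex, among them Cdh20 (-2.65), Cdh9 (-2.56), Cdh22 (-2.50), Cdh12 (-1.50) and Cdh11 (-0.56). The median was -0.44, and the summed CPM was 2393 in PVT and 2396 in cortex. Higher in PVT and in cortex were 12.5% and 37.5%, against 14.0% and 16.7% over all genes with peaks in both. Over matched peaks Cdh12, Cdh13 and Cdh20 turned to 0.068, -0.084 and 0.99. With 1 library left out, the Cdh9 call was lost in 7 of 8 fits and that of Cdh11 in 2. Of 21 Eph receptor and ephrin genes, 2 had a peak in PVT alone, 3 were higher in PVT (Efna2 2.34, Epha1 2.06 and Efnb3 1.58), 6 were higher in cortex and 10 did not pass, with a median of -0.06. Of the 19 Eph and ephrin genes with peaks in both, 15.8% were higher in PVT and 31.6% in cortex. Over supported peaks 4 of the 21 had a peak in PVT alone and 0 in cortex alone. The Efna2 direction turned with another extension of the gene span, and the calls of Efnb3 and Efna1 were each lost in 4 of 8 fits with 1 library left out. Ephb1, an axon guidance receptor, had 7.78 to 18.2 CPM in PVT and 133 to 239 in cortex (-3.76, SE 0.35, adjusted p = 0.000186). Ephb2 (-1.92), Efnb2 (-1.71), Epha5 (-1.66), Efna1 (-1.35) and Efna5 (-1.21) followed.

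Markers of cells other than the sorted neurons of the 2 regions carried signal in both. For scale, the summed CPM of 14 housekeeping genes was 383 to 488 in PVT and 416 to 534 in cortex. The summed CPM of 10 astrocyte markers was 201 to 248 in PVT and 112 to 182 in cortex, with Aldh1l1 (1.32) and S100b (4.18) higher in PVT and Aqp4 without a peak in either. Over peaks at a single gene S100b turned to -0.39, and with 1 library left out the Aldh1l1 call was lost in 4 of 8 fits. For 10 oligodendrocyte markers it was 374 to 416 and 503 to 637, of which Mbp held most, and Mag, Olig2 and Pdgfra had no peak in either. The summed astrocyte and oligodendrocyte levels did not overlap between regions and went opposite ways. Cnp (1.38) was higher in PVT and Mog (-3.14) and Cspg4 (-2.14) higher in cortex. For 9 microglia markers it was 93.4 to 129 and 85.1 to 146, with 1 gene higher in PVT, Trem2 (-3.78) and P2ry12 (-1.35) higher in cortex and C1qa without a peak in either. The P2ry12 call was lost in 6 of 8 fits with 1 library left out. None of the 8 endothelial and ependymal genes with peaks in both passed, and their median log2 change was 1.17. Over supported peaks, however, 6 of the 10 listed had a peak in PVT alone and 0 in cortex alone. The part of such cells in the results was not tested.

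Neighbouring structures gave a similar check. Of 10 habenula markers, which could mark tissue beside PVT, 3 had a peak in PVT alone, Gpr151 was higher in PVT (161 to 265 CPM against 5.08 to 17.2, log2 change 4.44) and Nwd2 higher in cortex (-3.29). Pou4f1, a defining habenula factor, averaged 3.09 CPM in PVT. Of 12 hypothalamus markers, 1 had a peak in PVT alone, 4 in cortex alone and 3 in neither. Of the 4 with peaks in both, Hcrt (-2.46) and Agrp (-1.10) were higher in cortex and 2 did not pass. Hcrt turned to 1.05 with no extension of the span and to 1.02 over matched peaks, and the Agrp call was lost in 4 of 8 fits with 1 library left out. Among 15 striatal genes, Ebf1 (3.76), Foxp1 (0.94) and Rarb (0.45) were higher in PVT and Rgs9 (-1.59) and Ppp1r1b (-1.24) were among the 3 higher in cortex. With 1 library left out the calls of Rarb, Rgs9 and Ppp1r1b were lost in 2, 1 and 5 of 8 fits, and over matched peaks Rgs9 turned to 0.086. Rbfox3, the gene of the sorted protein, had 770 to 852 CPM in PVT and 1081 to 1455 in cortex (-0.61, SE 0.12). Nefh (1.63) was the other of 10 pan-neuronal genes to pass, and its call was lost in 5 of 8 fits with 1 library left out.

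Housekeeping genes show what a missing peak means. Polr2a, which encodes the largest RNA polymerase II subunit and is used by every cell, had no PVT peak and 10.7 to 61.3 CPM in cortex. Rpl13a, a ribosomal protein gene, had 29.5 to 43.5 CPM in PVT and no cortical peak. Of 14 such genes 12 had peaks in both, 1 was higher in PVT, Gapdh (-2.10) and Ywhaz (-0.68) were higher in cortex and 9 did not pass. Ywhaz lost its call in 3 of 8 fits with 1 library left out and turned to 0.37 with no extension of the span. A missing peak therefore says only that none was called.

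**Figure D5:**
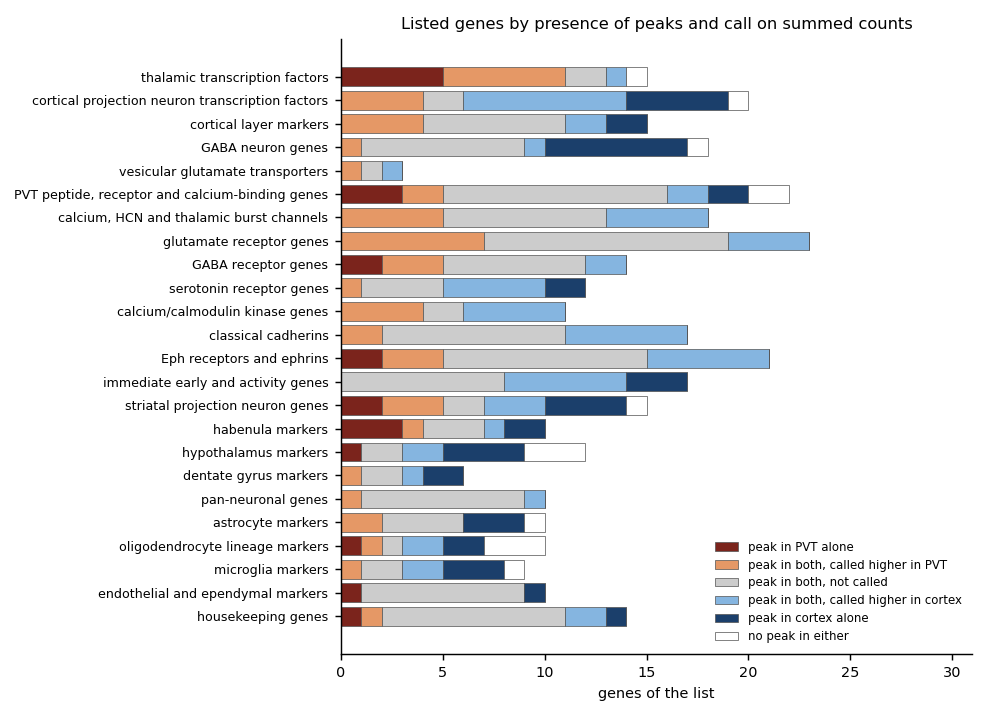
Numbers of genes in 24 lists (horizontal axis) by presence of a peak and, where both regions had peaks, by call on summed counts (edgeR adjusted p of 0.05; untested genes count as not called). Thalamic factors hold 5 genes with a peak in PVT alone, and cortical factors 5 with a peak in cortex alone.

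The largest changes among genes with peaks in both regions came where 1 region had only a trace of peak. The 12 with the largest rise in PVT were Lef1, Lcn12, E2f7, Selenom, Olfr455, Cib4, Rnf220, Glce, Cdcp2, Fgr, Thoc5 and Tpsb2, with log2 changes of 7.53 to 9.40. The 12 with the largest rise in cortex included Cd74, Vsig2, Boc, Ccbe1, Cckbr, Acss1, Zglp1, Pla2g4a, Rbm22, Samd3 and Fam81b, from -7.35 to -9.23. Over supported peaks, 11 of each 12 had no peak in the lower region. These sizes moved with single libraries. Without the first WT library of cortex, Lef1, Lcn12 and E2f7 went to 17.5, 16.6 and 15.9, and without its second mutant library Glce and Fgr went to 15.7 and 14.3. Without the first mutant library of PVT Cd74 went to -17.9, and without the second Acss1 went to -15.5. The calls of E2f7, Glce and Fgr were each lost in 4 of 8 fits with 1 library left out, and that of Acss1 without the second WT library of PVT.

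Rnf220, a ubiquitin ligase gene (chromosome 4, 117271463 to 117497052), had 1686, 1481, 1428 and 1220 CPM in PVT over 22 peaks and 176.109 kb. Its cortical libraries had 3.09, 12.6, 0.0680 and 9.25 CPM over 1 peak of 0.693 kb. The regions did not overlap, and the log2 change was 7.90 (SE 1.25, adjusted p = 0.00184). Pla2g4a, a cytosolic phospholipase A2, had 0.670, 0.732, 5.11 and 1.92 CPM in PVT and 493, 131, 521 and 414 in cortex (-7.91, SE 0.71, adjusted p = 0.000166). Cckbr, the cholecystokinin B receptor, had 74.9 to 115 CPM in cortex and 0 to 2.56 in PVT (-8.28, SE 1.55).

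Among genes with a peak in 1 region alone, the highest levels in PVT were at Zic5, Lhcgr, Pygl, Zic2, Zic4 and Gpat2. Lhcgr, a gonadotropin receptor gene, had 443, 397, 377 and 374 CPM over 42.496 kb, and Pygl, liver glycogen phosphorylase, 429, 351, 319 and 309. In cortex they included Gda, Reep2, Npr3, Meis2 and Neu2. Gda, guanine deaminase, had 177, 139, 166 and 209 CPM over 24.877 kb. Among these named genes the lowest value in any library of their region was 81.6 CPM, at Npr3 in the second WT library of cortex.

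The greatest gains of acetylated length in PVT were at Rora, Cacna1c, Zfp423, Rnf220, Agap1 and Vav3, with spans from 226 kb at Rnf220 to 735 kb at Rora. Zfp423, a zinc finger factor, had 200.81 kb acetylated in PVT and 14.488 kb in cortex, with 1378 ± 76.8 CPM against 92.4 ± 39.9 (SD, n = 4, log2 change 3.95). Vav3, a guanine nucleotide exchange factor, had 157.717 and 12.107 kb (3.85) and Agap1 194.726 and 23.619 kb (3.05). Per kb, the log2 changes of Zfp423, Vav3 and Agap1 were 0.17, 0.16 and 0.02.

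In cortex the greatest gains were at Magi2, Macrod2, Pknox2, Tcf4, Dab1 and Lrrc4c. Magi2, a synaptic scaffold gene, had 222.879 kb acetylated in cortex and 47.535 kb in PVT (log2 change -2.36), and Lrrc4c, a synaptic adhesion gene, 125.489 and 12.419 kb (-3.04). Macrod2 (-2.39), Pknox2 (-2.45), Dab1 (-2.06) and Tcf4 (-1.98) followed. Over matched peaks, Zfp423 had a log2 change of -0.05 and Tcf4, a bHLH factor, one of 1.24, opposite in sign to their summed changes. Few peaks could be matched in this way: 7.79% of autosomal PVT peaks overlapped a cortical peak by at least 50% of both lengths. On those peaks 136 of 6233 genes (2.18%) passed.

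Other features were compared between the classes of genes. Genes 2-fold higher in PVT had a median span of 41.9 kb and those 2-fold higher in cortex 40.7 kb, against 23.5 kb where peaks lay in both without such a change. Peaks of open chromatin in PVT lay at 98.7% and 97.5% of the 2 classes, with medians of 52.1 and 35.4 CPM. Where H3K27ac peaks lay in both without such a change, the share was 97.3% and the median 35.8 CPM. Peaks of open chromatin lay at 78.1% of genes with H3K27ac in PVT alone and 54.0% of those with it in cortex alone, against 77.8% of all genes. ATAC values come from PVT only, so they cannot be set against cortical ones.

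Promoter windows of 250 bases were found for 16457 of the 20665 genes. They overlapped a PVT peak in 70.4% of windows of genes 2-fold higher in PVT and 40.7% of those 2-fold higher in cortex. For cortical peaks the shares were 42.1% and 64.3%. The classes were set by counts summed over these same peaks, so the order of these shares is built in and tests nothing. The median number of CpG per window was 14 and 13 in these classes, 6 and 4 for genes with a peak in PVT or cortex alone and 1 for genes with no peak. Motif letters were about as frequent in both 2-fold classes, which is a description and not a site. On both strands, and counting each motif whether or not it overlapped another, CTTTGA, the core bound by Tcf7l2 and Lef1, was found in 10.1% of PVT-high and 11.4% of cortex-high windows and in 12.6% of all. The E-box CAGATG was found in 12.2%, 10.9% and 12.5%, and the E-box CAGCTG in 14.5%, 13.2% and 12.2%.

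Whether the regional difference depended on genotype was tested with 2 libraries per group, so a small count does not show that genotypes agree. Across 13795 genes, log2 changes in WT and in mutant libraries had a Pearson's r of 0.403 and a Spearman's rho of 0.696. These values are a description, since genes are not replicates. The interaction of region and genotype passed at 36 of 15633 genes (0.23%), and at 33 of these both libraries of 1 group had 0 counts. Abat, which encodes the GABA-degrading transaminase, had 139, 150, 143 and 147 CPM in PVT, 0 and 0 in WT cortex and 14.5 and 14.4 in mutant cortex (interaction adjusted p = 0.00785). Gtf2a1l, Cdcp2, Vstm4 and Plekha8 had the next smallest p-values. Without any 1 of the 4 PVT libraries no gene passed, and without the first WT library of cortex 846 did. Over supported peaks 2 passed, and DESeq2 called 809.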

How the data were processed

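The deposited tables hold raw counts per peak, 1 table per region, with 1 peak set merged over the 4 libraries of that region, per the file headers. The columns marked TG are the Polg(D181A) libraries. STAR, HOMER, Subread with featureCounts and DESeq2, on mm10, are listed in the submitters' processing notes without versions or roles; for the peak threshold and duplicate reads the setting is not given in the sources used here. ATAC-seq peaks of PVT were used for description only, and RNA was not used here.

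Peaks were summed over 20665 autosomal protein-coding genes (mm10, span plus 5 kb at each end). Peak counts of a gene were tested with the edgeR quasi-likelihood test (edgeR 4.0.16, limma 3.58.1, R 4.3.3), TMM scaling and genotype as covariate, leaving 5 residual degrees of freedom and a common biological coefficient of variation of 0.790; adjusted p-values are Benjamini-Hochberg. Counts per acetylated kb used the acetylated length as an offset for genes with at least 1 kb in each region. Region by genotype was the interaction term. The tests were tried before use on simulated counts for genes with at least 1 kb in each region. The simulated dispersion was below the common value fitted here and empty libraries were not modelled, so it does not cover such genes. Tables and figures were made with Python 3.11.15, pandas 2.3.3 and matplotlib 3.10.9.

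The members, lists and rules were chosen with earlier results of these data known. The genes named were Polg and the 4 markers; the 12 per direction with the largest change among 2-fold calls with a peak in both regions and at least 50 CPM in the higher one, without predicted loci; the 6 per region with the highest level and no peak in the other; the 6 per direction with the largest difference in acetylated length; the 5 with the smallest interaction p; and members of 24 gene lists. Counts cover all members, and some that the rule names are not reported here. Replicate numbers are shared by the regions. Deviations of same-numbered libraries from their group means had a correlation across genes of 0.0256 in WT and 0.0137 in Polg(D181A). With so few libraries this cannot show whether same-numbered libraries came from the same animals. Alternatives were other scalings (DESeq2 1.42.0 size factors, total counts), DESeq2 itself, no filter, other spans, peaks matched between regions, peaks at 1 gene, each genotype alone, a replicate block and each library left out. The restriction to peaks with a count in all 4 libraries was chosen after seeing the data.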

Additional observations from a re-analysis of the deposited data

Results flagged for a closer look

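Within the 4 libraries of a region, 21 values stood apart from the other 3 by a gap that is large for a group of 4, which chance gives in about 1 in 20 groups. A total of 306 groups were examined, and at that rate about 15.3 would be flagged. The rate does not cover groups with 3 values at 0, where any count in the remaining library stands apart. Nor does it cover genes named for extreme changes, so 15.3 is only a rough scale. In PVT, the first WT library stood high at Camk1g (50.02 CPM, others 30.5 to 33.8). The second mutant library of PVT stood high at Esrrg (32.0 CPM, others 17.1 to 19.5), Magi2 (399 CPM, others 327 to 335) and Acss1 (3.45 CPM, others 0). The first mutant library of PVT stood low at Cdh9 (1.84 CPM, others 8.24 to 9.31) and had the only value above 0 at Cd74 (5.63 CPM).

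In cortex, the second WT library stood low at Cdh9 (6.46 CPM, others 51.6 to 57.3), Grm8 (176 CPM, others 403 to 438), Samd3 (77.7 CPM, others 179 to 195) and Tcf4 (752 CPM, others 1274 to 1381). It stood high at Zfp423 (152 CPM, others 68.1 to 81.1) and Gal (10.1 CPM, others 0 to 0.914). The first WT library of cortex stood high at Ebf1 (12.5 CPM, others 1.63 to 2.23) and had the only value above 0 at E2f7 (4.28 CPM), Htr1d (7.95 CPM), Lcn12 (4.61 CPM), Lef1 (4.49 CPM) and Slc17a8 (4.35 CPM). The second mutant library stood high at Fgr (8.05 CPM) and Glce (5.69 CPM), and the first at Rorb (207 CPM, others 126 to 132).

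The effect of region differed between genotypes by the interaction term (edgeR quasi-likelihood test) at 36 genes, of which the 13 named in the text follow. The interaction log2 values were -13.55 for Abat, -13.42 for Gtf2a1l, -12.35 for Cib4, -10.55 for Zglp1 and -8.35 for Ccbe1. They were 13.79 for Plekha8, 13.29 for Vstm4, 12.63 for Cdcp2, 11.59 for Rbm22, 11.50 for Tpsb2, 10.81 for Thoc5, 10.79 for Vsig2 and 7.06 for Boc. Fitted values of this size come from groups with 0 counts and are no bound. A total of 33 of the 36 genes had both libraries of a group at 0.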

How the results depend on the processing

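Of 148 named genes with a fold, 140 were called, and 2638 of 3020 values under the alternatives kept direction and call. Only 30.7% of all genes with peaks in both were called, so this share of values kept does not describe genes at large. With 1 library left out, 31 of the 140 lost their call in at least 1 of 8 fits. No direction turned under another scaling, DESeq2, the replicate block, a left-out library, 1 genotype alone or the restriction to peaks counted in all 4 libraries. Calls were lost, though, at 58 of the 148 genes in WT libraries alone and at 35 in mutant libraries alone. The number of genes called on summed counts was 6024, and ran from 5204 to 6816 with 1 library left out; it was 3942 over genes with a peak in both regions, 136 over matched peaks and 9072 over peaks counted in all 4 libraries. DESeq2 called 8770 genes on summed counts. The replicate block gave 4498 genes, and 0 on counts per kb. No other pairing was tried, since the labels give none. On counts per kb, 0 to 2 genes passed with 1 library left out, the 2 being without the second WT library of cortex, and DESeq2 called 84. For region by genotype, 36 became 809 with DESeq2, 2 over peaks counted in all 4 libraries and 0 to 846 with 1 library left out: 0 without any PVT library, and 846, 213, 109 and 372 without the first and second WT and first and second mutant cortical libraries. Genes with a peak in PVT alone were 737 with a 20 kb extension and 3468 over peaks counted in all 4 libraries, where those with a peak in cortex alone were 1068 and those at least 2 times longer in cortex 1936. Of log2 changes that turned, with no extension Efna2 was -0.41, Egr1 1.66, Hcrt 1.05 and Ywhaz 0.37; with 20 kb Efna2 was -0.48 and Gabra5 0.12. Over matched peaks, which leave few bases, 2 named genes kept direction and call, 51 kept direction but lost the call and 19 turned. Of these 19, Cacna1b was -0.28, Cacna1e 0.13, Camk4 0.036, Camkk2 0.64, Cdh12 0.068, Cdh13 -0.084, Cdh20 0.99, Cux2 -0.10, Grm3 0.00030, Grm5 0.22, Grm8 0.0069, Hcrt 1.02, Kcnn2 0.63, Mef2c 0.32, Nr4a3 1.55, Rgs9 0.086, Tcf4 1.24, Tshz2 -0.54 and Zfp423 -0.054. Over peaks at a single gene Camk2a was 0.33, Egr1 1.55, Hcrtr1 -1.46, Oprm1 0.84 and S100b -0.39, and Camkv -13.84 and Gabrd -14.62, fitted values with no PVT count left. The cause was not tested. With 2 libraries per group and merged peak sets, small differences in density and all differences outside called peaks cannot be seen here.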
